A study of Mus musculus with 6 samples.

Results

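The genes described here are 8 genes of the synuclein and amyloid precursor pathways: Sncb, App, Aplp1, Aplp2, Psen2, Bace1, Adam10 and Mapt. They were picked out by gene symbol in the deposited expression table by a rule that sets no limit on measured values, and they are 8 of the 54532 genes listed there. RNA-seq of the hippocampus gave 3 WT and 3 TG libraries, with the replicates numbered WT1, WT2, WT3 and TG1, TG2, TG3. The TG mice are knock-in mice in which CRISPR/Cas9 placed the G82R and L85P substitutions in exon 3 of Slc1a2, the gene for the glutamate transporter GLT-1, on a C57BL/6N background. WT mice carry the unedited gene, and the paper states that littermates served as the WT controls. Which libraries share a litter is not given. The germline change is present in every cell type rather than in 1 class of cells, and the age, the sex and the zygosity of the mice behind each library are not given in the sources used here. The labels name no treatment apart from the genotype. The comparison asks whether RNA of these genes differs in the hippocampus of mice that carry variants linked to epilepsy.

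The amyloid precursor protein, encoded by App, is a membrane protein of neurons and other cells that proteases cut in alternative ways. An alpha-secretase, for which ADAM10 is the main neuronal enzyme, cuts within the amyloid beta stretch, whereas beta-secretase (BACE1) followed by the gamma-secretase complex, with a presenilin as its catalytic subunit, releases amyloid beta. Beta-synuclein is a presynaptic protein of the synuclein family, and tau, encoded by Mapt, binds microtubules in axons and forms the tangles of Alzheimer's disease.

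The deposited values are FPKM, the reads of a gene divided by the length of its exons in kb and by the size of the library. Whole reads were recovered from them for 100% of the values in every library (tolerance 0.05 reads). The libraries held 16081281 to 18751057 reads on genes, and 3 reads on a gene of 1 kb correspond to 0.160 to 0.190 FPKM. Fold changes are differences of log2(FPKM + 0.1), TG minus WT, from a limma fit over the 20952 genes with a mean of at least 0.1 FPKM, which all 8 genes passed, and the Benjamini-Hochberg adjustment covered all of these genes. The exact permutation test of 1 gene, with 3 libraries in each group, cannot give a two-sided p below 0.1. Slc1a2 itself lay at 177 to 202 FPKM in WT and 207 to 222 FPKM in TG, which does not check the genotype because a substitution need not alter the RNA level. The libraries differed in 1 respect that the genotype labels do not give: the summed FPKM of 13 choroid plexus markers was 83.3 to 112 in WT and 92.9 in TG3, but 1344 in TG1 and 4204 in TG2. No marker of neurons, hippocampal principal neurons, astrocytes, oligodendrocytes or microglia was at 0 in any library. In bulk RNA, fewer cells of a type and less RNA per cell cannot be told apart.

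No difference between WT and TG passed the test in any of the 8 genes. None passed an adjusted p of 0.05, which 0.00955% of all tested genes did (2 genes). None was below an unadjusted p of 0.05 either, against 5.91% of the tested genes. In each of the 8 genes the FPKM of the WT and TG libraries overlapped, whereas the groups lay apart in 12.1% of the tested genes. The difference was positive in 5 genes and negative in 3, with a median of 0.00 on the log2 scale (also 0.00 over all tested genes). The median size of the difference, without its sign, was 0.05 for the 8 genes and 0.15 for all tested genes. It was 0.11 for the 13325 tested genes with a mean of at least 1 FPKM, a level that all 8 genes reach.

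**Figure D1:**
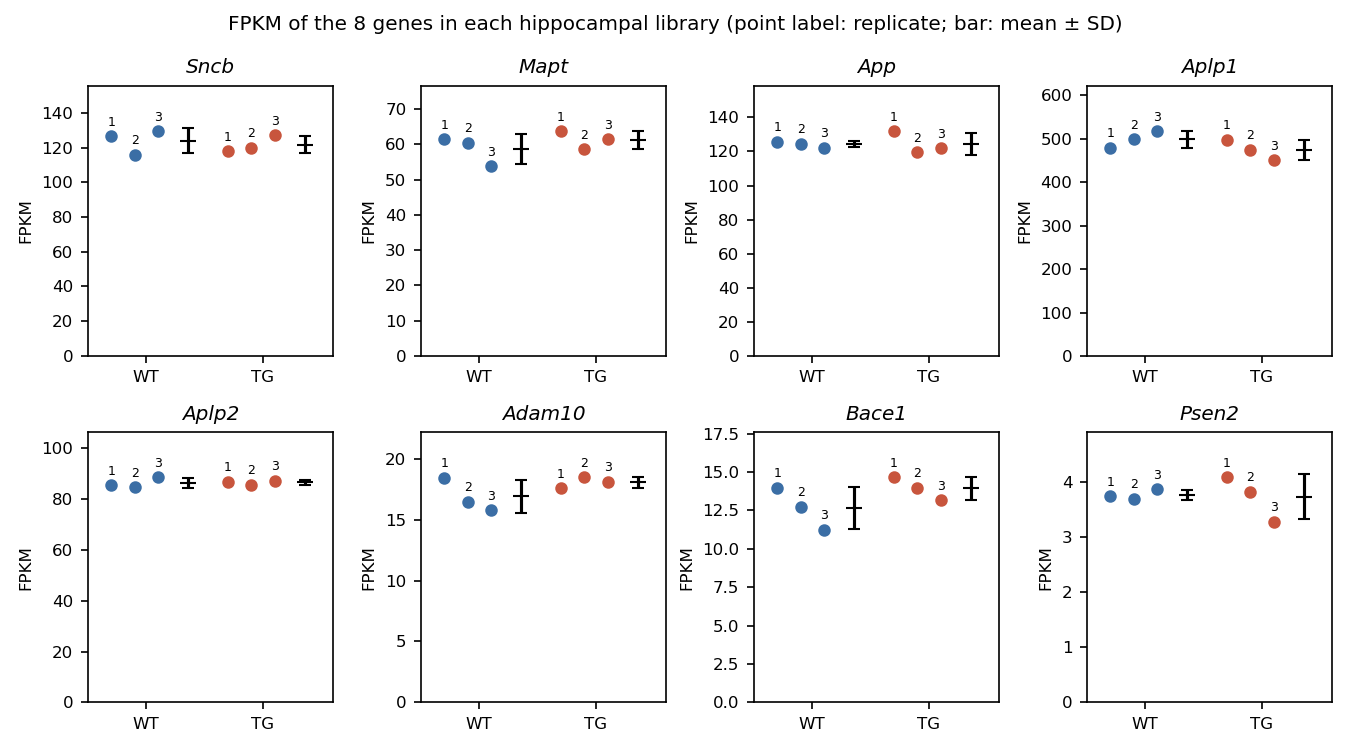
FPKM of each gene in every library (vertical axes, each from 0), with WT in blue, TG in red, the replicate number over each point and a bar for the mean ± SD of 3 libraries. The WT and TG points overlap in every panel, and the widest relative spread is seen in Bace1, from 11.2 to 14.6 FPKM.

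Sncb encodes beta-synuclein (ENSMUSG00000034891, chr13:54758860-54766595 of GRCm38, minus strand, with an exon length of 2145 bases). Its level was 127, 116 and 129.5 FPKM in WT1 to WT3 and 118, 119.8 and 127 FPKM in TG1 to TG3. WT2 was the lowest library and WT3 the highest, so both extremes were WT and all TG values fell between them. The means were 124 ± 7.13 FPKM in WT and 122 ± 4.91 FPKM in TG (SD, n = 3), and the log2 difference was -0.03 (SE 0.0764, 95% interval -0.21 to 0.15, limma unadjusted p = 0.737, adjusted p = 0.940, exact permutation p = 0.8). In percent this interval runs from -13.3 to 11.2, and changes within it are compatible with these libraries. It is not a limit of detection.

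Mapt encodes tau (ENSMUSG00000018411, chr11:104231390-104332090 of GRCm38, plus strand, 12 annotated transcripts). Its level was 61.5, 60.5 and 53.7 FPKM in WT1 to WT3 and 63.8, 58.6 and 61.4 FPKM in TG1 to TG3. WT3 was the lowest library and the other 5 lay within 58.6 to 63.8 FPKM. The means were 58.6 ± 4.23 FPKM in WT and 61.3 ± 2.57 FPKM in TG (SD, n = 3), with a log2 difference of 0.07 (SE 0.0776, 95% interval -0.12 to 0.25, limma unadjusted p = 0.420, adjusted p = 0.838, exact permutation p = 0.5). Without WT3 the log2 difference of Mapt was 0.01, so most of the small excess in TG rested on that library. The log2 ratio of Sncb to Mapt was 1.08 ± 0.169 in WT and 0.99 ± 0.0895 in TG (exact permutation p = 0.5, adjusted p = 0.571 over 8 shares and ratios), and without WT3 its difference between the groups was 0.00. WT3 was also the library with the highest summed FPKM of the 7 neuron markers, 1572 against 1266 to 1403 in the other 5 libraries, and whether that bears on the low Mapt value was not tested.

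The amyloid precursor family comprises App and its homologs Aplp1 and Aplp2, which share the large extracellular part and the short cytoplasmic tail of App but lack the amyloid beta stretch. Their coding sequences were compared because reads that fit more than 1 family member could be assigned to the wrong gene. The longest stretch common to the principal coding transcripts of App and Aplp2 in GENCODE M21 is 24 bases, printed here in capitals with 15 bases of each gene on either side, 5′ to 3′ on the coding strand. The App segment lies at chr16:85079963-85080016 and the Aplp2 segment at chr9:31170563-31170616 (GRCm38, both minus strand, coding exons).
App: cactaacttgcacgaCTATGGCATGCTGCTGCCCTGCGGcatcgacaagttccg
Aplp2: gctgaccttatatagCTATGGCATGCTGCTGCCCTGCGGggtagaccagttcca
The longest stretch shared by App and Aplp1 was 13 bases and that shared by Aplp1 and Aplp2 was 14 bases. No 50-base stretch of an Aplp1 or Aplp2 transcript occurred in a transcript of any other gene, and 0.152% of those of App did. The read length and the rule for reads that match several genes are not given in the sources used here.

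App itself (ENSMUSG00000022892, chr16:84949685-85173766 of GRCm38, minus strand, 11 annotated transcripts) was read 26174 to 30239 times per library, the most of the 8 genes. Its level was 126, 125 and 122 FPKM in WT1 to WT3 and 132, 119.7 and 122 FPKM in TG1 to TG3. Both the highest and the lowest library were TG, and the WT values lay close together between them. The means were 124 ± 1.87 FPKM in WT and 125 ± 6.61 FPKM in TG (SD, n = 3). The log2 difference was 0.00 (SE 0.0713, 95% interval -0.17 to 0.17, limma unadjusted p = 0.979, adjusted p = 0.997, exact permutation p = 1.0), an interval of -10.8% to 12.5%. TG1 and TG2, the libraries with high choroid plexus markers, were at opposite ends of the App values, and with a choroid plexus score as a covariate the log2 difference of App was -0.00082.

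Aplp1 (ENSMUSG00000006651, chr7:30434982-30445535 of GRCm38, minus strand) encodes a family member found mainly in neurons. It was the most abundant of the 8 genes, at 479.5, 499.3 and 518 FPKM in WT1 to WT3 and 498, 475 and 451 FPKM in TG1 to TG3. The lowest libraries were TG3 and TG2 and the highest was WT3, but TG1 lay above WT1. The means were 499 ± 19.3 FPKM in WT and 475 ± 23.6 FPKM in TG (SD, n = 3), and the log2 difference was -0.07 (SE 0.0959, 95% interval -0.30 to 0.15, limma unadjusted p = 0.470, adjusted p = 0.856, exact permutation p = 0.2). It was the most negative difference among the 8 genes and stayed negative when each library was left out in turn, between -0.11 (without TG1) and -0.04 (without TG3).

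Aplp2 (ENSMUSG00000031996, chr9:31149557-31211815 of GRCm38, minus strand) encodes a family member expressed in many tissues. Its level was 85.4, 84.8 and 88.5 FPKM in WT1 to WT3 and 86.8, 85.6 and 87.2 FPKM in TG1 to TG3. All TG values fell between the lowest and the highest WT value. The means were 86.2 ± 1.99 FPKM in WT and 86.5 ± 0.819 FPKM in TG (SD, n = 3), with a log2 difference of 0.01 (SE 0.0614, 95% interval -0.14 to 0.15, limma unadjusted p = 0.930, adjusted p = 0.987, exact permutation p = 0.8). Aplp2 was the steadiest of the 8 genes: its within-group SD of 0.03 on the log2 scale was larger than that of only 0.330% of the 13325 tested genes with a mean of at least 1 FPKM.

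Shares within the family do not depend on how a library was scaled. App made up 18.2%, 17.6% and 16.8% of the summed FPKM of the 3 genes in WT1 to WT3, and its share was 18.4%, 17.6% and 18.5% in the TG libraries. Aplp1 made up 68.3% to 71.1% and Aplp2 11.96% to 13.2% over the 6 libraries. The differences between the groups were 0.635 percentage points for App, -1.12 for Aplp1 and 0.484 for Aplp2 (exact permutation p = 0.2, 0.3 and 0.3, adjusted p = 0.4 for each). Counted as reads, which do not divide by exon length, App held 43.3% to 46.0% of the family, Aplp1 39.4% to 42.6% and Aplp2 13.7% to 14.8%. App and Aplp1 thus gave nearly equal numbers of reads, and the gap between their FPKM follows the exon length by which the authors divided, 12996 bases for App and 3017 for Aplp1.

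In FPKM, the protease genes Adam10, Bace1 and Psen2 lay well below App, Aplp1 and Aplp2. Adam10 (ENSMUSG00000054693, chr9:70678997-70780229 of GRCm38, plus strand), the alpha-secretase gene, lay at 18.4, 16.5 and 15.8 FPKM in WT1 to WT3 and 17.6, 18.5 and 18.1 FPKM in TG1 to TG3. WT3 and WT2 were the lowest libraries, while WT1 was level with the highest TG library. The means were 16.9 ± 1.37 FPKM in WT and 18.1 ± 0.443 FPKM in TG (SD, n = 3), and the log2 difference was 0.10 (SE 0.0771, 95% interval -0.08 to 0.28, limma unadjusted p = 0.247, adjusted p = 0.789, exact permutation p = 0.3). Without WT1 the difference was 0.16 with an unadjusted limma p of 0.0541, the lowest p of any of the 8 genes in any fit, and without WT3 it was 0.05.

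Bace1 (ENSMUSG00000032086, chr9:45838580-45864399 of GRCm38, plus strand), the beta-secretase gene, lay at 14.0, 12.7 and 11.2 FPKM in WT1 to WT3 and 14.6, 14.0 and 13.2 FPKM in TG1 to TG3. WT3 and WT2 were below all TG libraries, and WT1 was among them. The means were 12.7 ± 1.36 FPKM in WT and 13.9 ± 0.747 FPKM in TG (SD, n = 3), and the log2 difference was 0.14 (SE 0.0953, 95% interval -0.08 to 0.36, limma unadjusted p = 0.180, adjusted p = 0.789, exact permutation p = 0.2). This was the largest difference of the 8 genes, 10.3% with an interval of -5.54% to 28.8%, and on the log2 scale it was 0.06 without WT3 and 0.22 without WT1. Of the Bace1 exons, 32.5% overlap genes on the opposite strand, mainly Rnf214 (975 bases) and Gm49338 (951 bases), and the sources used here do not state whether counting used strand. The log2 difference was 0.15 for Rnf214 and 0.19 for Gm49338 (limma unadjusted p = 0.159 and 0.106), so both neighbours had a difference of the same sign and similar size. Within the overlapping bases, their reads cannot be told apart from those of Bace1 if strand was not used. Apart from 113 bases of App (0.869% of its exons), no exon of the other genes overlapped another gene.

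Psen2 (ENSMUSG00000010609, chr1:180227004-180263438 of GRCm38, minus strand) encodes presenilin-2, a catalytic subunit of gamma-secretase. It was the least abundant of the 8 genes, at 3.75, 3.70 and 3.87 FPKM in WT1 to WT3 and 4.08, 3.82 and 3.28 FPKM in TG1 to TG3. TG1 was the highest library and TG3 the lowest, with the WT values between them. The means were 3.77 ± 0.0883 FPKM in WT and 3.73 ± 0.408 FPKM in TG (SD, n = 3), with a log2 difference of -0.02 (SE 0.107, 95% interval -0.27 to 0.23, limma unadjusted p = 0.850, adjusted p = 0.968, exact permutation p = 0.9). Only 257 to 314 reads per library lay on Psen2, so counting error alone gives a CV of 5.93%, above the 2.34% seen among the WT libraries and below the 10.9% seen among the TG libraries. For App the same counting CV was 0.594%.

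Ratios between substrate and protease were compared within each library. The log2 ratio of App to Bace1 was 3.30 ± 0.135 in WT and 3.16 ± 0.0583 in TG, and that of App to Adam10 was 2.88 ± 0.0964 in WT and 2.78 ± 0.111 in TG (SD, n = 3). The log2 ratio of Adam10 to Bace1, alpha- over beta-secretase, was 0.42 ± 0.0620 in WT and 0.38 ± 0.101 in TG, and that of Bace1 to Psen2 was 1.74 ± 0.184 in WT and 1.90 ± 0.0850 in TG. The groups overlapped in each ratio, with exact permutation p-values of 0.2 to 0.7 and adjusted values of 0.4 to 0.7 over the 8 shares and ratios. In FPKM, Adam10 exceeded Bace1 in all 6 libraries, by 0.26 to 0.49 on the log2 scale. This gap did not differ between WT and TG beyond the spread of the libraries. Recovered reads were closer, 1308 to 1675 for Adam10 and 1307 to 1640 for Bace1, and in TG1 Bace1 had more (1471 against 1367). The gap in FPKM thus rests largely on the exon lengths, 4913 bases for Adam10 and 6348 for Bace1. Whether the overlap of Bace1 exons with genes on the opposite strand lowered its count was not tested.

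**Figure D2:**
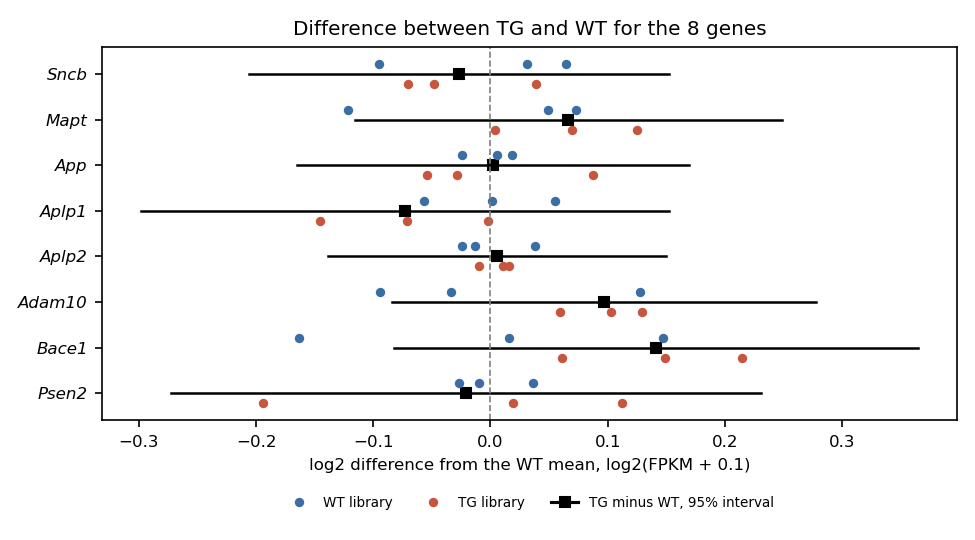
Difference between TG and WT for each gene, on the scale of log2(FPKM + 0.1) (horizontal axis), with the limma estimate (square) and its 95% interval over 3 libraries against 3, and each library's deviation from the WT mean as a point (WT blue, TG red). Every interval crosses 0, from the lowest estimate in Aplp1 (-0.07) to the highest in Bace1 (0.14).

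The 8 genes span a wide range of levels. Over the 6 libraries the mean was 487 FPKM for Aplp1, 124 for App, 123 for Sncb, 86.4 for Aplp2, 59.9 for Mapt, 17.5 for Adam10, 13.3 for Bace1 and 3.75 for Psen2. Among neighbours in this order, App and Sncb overlapped over the 6 libraries (119.7 to 132 against 116 to 129.5 FPKM), and no other neighbours did. Psen2 stood at the 57.4th percentile of the mean levels of all tested genes and Aplp1 at the 99.8th. The order depends on the length by which reads are divided, and the deposited length, the union of all annotated exons, is 12996 bases for App and 7531 bases for Mapt. Divided by the length of the longest coding transcript, the order was kept, with Aplp1 at 627, App at 198, Sncb at 195 and Mapt at 85.9 reads per kb after library scaling. Divided by the length of the principal transcript (3176 bases for App and 1362 for Mapt), App rose to 509 and Mapt to 331, above Sncb at 195. Both alternatives kept the reads of all exons and changed only the length. Reads that lie outside the chosen transcript therefore raise these values, which are not levels of that transcript. These 2 alternatives were chosen after the levels were seen.

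**Figure D3:**
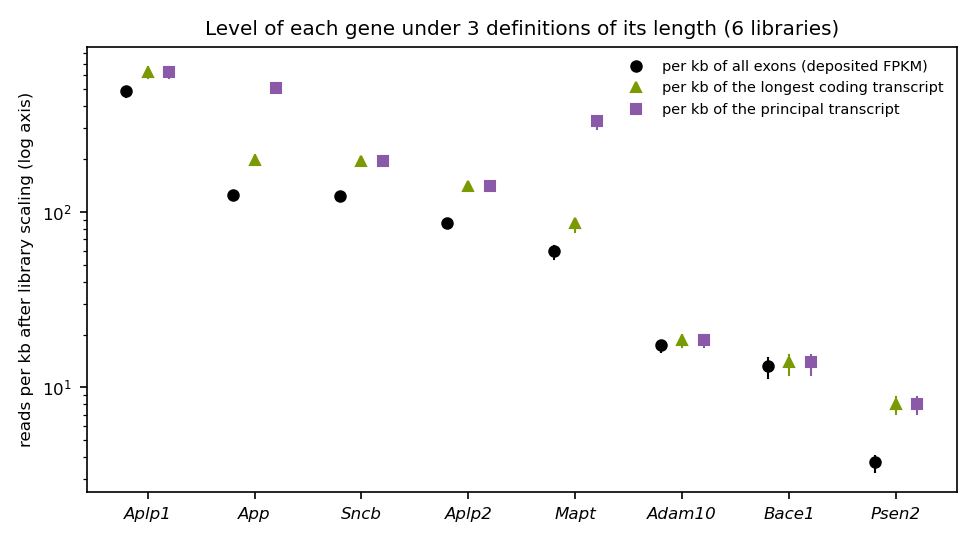
Mean level of each gene over 6 libraries (vertical log axis, reads per kb after library scaling), divided by the length of all exons, of the longest coding transcript or of the principal transcript, with a line from the lowest to the highest library. App and Mapt move up most under the principal transcript, to 509 and 331, and the other genes change little in order. The reads of all exons were kept under each length, so these are not levels of single transcripts.

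The spread among libraries was narrow. The within-group SD on the log2 scale was 0.03 for Aplp2, 0.06 for App and Aplp1, 0.07 for Sncb, 0.08 for Adam10, 0.09 for Mapt, 0.11 for Psen2 and 0.12 for Bace1. Its median over the 8 genes was 0.08, against 0.14 for the 13325 tested genes with a mean of at least 1 FPKM and 0.20 for all tested genes. WT3 stood at the edge in 6 of the 8 genes. It was the lowest library for Bace1, Adam10 and Mapt and the highest for Sncb, Aplp1 and Aplp2, so its values did not shift in a common direction.

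The surrounding pathways were read from lists of 120 other genes, of which 119 were tested. No gene of these lists passed an adjusted p of 0.05. Without adjustment, 4 of them were higher and 1 was lower in TG at a limma p under 0.05, against 3.13% and 2.78% of all tested genes. The 9 genes in which TG lay wholly above WT and the 9 in which it lay wholly below compare with 6.35% and 5.71% of all tested genes. Positive differences were found in 72 genes and negative ones in 47, with a median log2 difference of 0.04.

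Partners of the synucleins were mostly lower in value in TG. Negative differences were found in 9 of 11 genes, with a median log2 difference of -0.13 against 0.00 over all tested genes. TG lay wholly below WT in 5 of the 11, against 5.71% of all tested genes. Among these were Sncg, which encodes gamma-synuclein, and the 14-3-3 genes Ywhaz, Ywhah and Ywhae, with log2 differences of -0.19, -0.13, -0.18 and -0.17 and unadjusted limma p-values of 0.105, 0.192, 0.122 and 0.150, and they were named after their values were seen. Hspa8, the chaperone Hsc70 and the most abundant of the list, lay at 303, 292 and 344 FPKM in WT1 to WT3 and 295, 307 and 299 FPKM in TG1 to TG3, a log2 difference of -0.06 with an unadjusted limma p of 0.573. The libraries of each group were not alike here, since the median deviation of the list from the WT mean was 0.14 in WT3 but -0.06 in WT1 and -0.08 in WT2, against -0.14, -0.10 and -0.09 in TG1 to TG3. Without WT3 the median of the list was -0.07. Not every 14-3-3 gene of the list was lower in TG. Ywhag went the other way over all 6 libraries, with a log2 difference of 0.04. It lay at 224, 224 and 211 FPKM in WT1 to WT3 and 244, 208 and 224 FPKM in TG1 to TG3. The groups overlapped, and Ywhag too was named after its values were seen.

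The other parts of gamma-secretase showed no common direction with Psenen. Psenen, which encodes the subunit PEN-2, was the most abundant of the 6 subunit genes tested and had the smallest p, at 25.3, 24.5 and 33.3 FPKM in WT1 to WT3 and 22.5, 24.4 and 22.4 FPKM in TG1 to TG3. Its log2 difference was -0.25 (SE 0.122, 95% interval -0.54 to 0.04, limma unadjusted p = 0.0789, adjusted p = 0.788), and TG lay below WT by a narrow gap. Without WT3 the difference was -0.11. The other 5 subunit genes had positive differences and the list's median was 0.08, with none under an unadjusted p of 0.05. Among 3 other alpha- and beta-secretase genes, Adam9 was the most abundant, at 12.9 to 13.2 FPKM in WT and 13.3 to 13.8 FPKM in TG (log2 difference 0.05, limma unadjusted p = 0.449). The median of those 3 genes was 0.07.

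Regulators of ADAM10 held 2 of the 4 genes that were higher at an unadjusted p, and both encode secreted inhibitors. Sfrp1, a Wnt antagonist that also inhibits ADAM10, lay at 1.37, 0.680 and 0.782 FPKM in WT1 to WT3 and 2.05, 3.05 and 1.57 FPKM in TG1 to TG3. All TG libraries were above all WT libraries, and TG2 was the highest. The log2 difference was 1.16 (SE 0.313, 95% interval 0.43 to 1.89, limma unadjusted p = 0.00702, adjusted p = 0.786). Timp3, an inhibitor of metalloproteases, lay at 8.67, 6.58 and 5.80 FPKM in WT1 to WT3 and 10.5, 10.1 and 8.91 FPKM in TG1 to TG3. Here too the groups did not overlap, with a log2 difference of 0.50 (SE 0.150, 95% interval 0.15 to 0.85, limma unadjusted p = 0.0120, adjusted p = 0.786). Timp2, the most abundant of the list, was at 93.7 to 125 FPKM in WT and 95.8 to 125 FPKM in TG. The median over the 9 genes of the list was 0.10, with 7 positive and 2 negative differences. With the choroid plexus score as a covariate the log2 difference was 0.64 for Sfrp1 and 0.35 for Timp3, still positive but with an unadjusted limma p of 0.112 and 0.139. Without WT2 or TG1 the unadjusted limma p of Timp3 was 0.0556 and 0.0587.

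Of the 26 genes tested for trafficking and adaptors of APP and BACE1, 14 had positive and 12 negative differences, with a median of 0.05. Gga2, which encodes a sorting adaptor of the trans-Golgi network, lay at 2.72, 2.78 and 2.63 FPKM in WT1 to WT3 and 3.09, 3.29 and 3.28 FPKM in TG1 to TG3. The groups did not overlap, and the log2 difference was 0.24 (SE 0.0941, 95% interval 0.02 to 0.46, limma unadjusted p = 0.0375, adjusted p = 0.786). With the choroid plexus score as a covariate it was 0.24 with an unadjusted limma p of 0.147, and the unadjusted p was 0.0579 to 0.0848 without WT1, WT3, TG2 or TG3. Itm2c, a BRI family gene and the most abundant of the list, was at 436 to 501 FPKM in WT and 413 to 471 FPKM in TG.

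Genes of amyloid beta degradation and clearance had a median of 0.06 over 10 genes, 7 positive and 3 negative. Ace, which encodes angiotensin-converting enzyme, lay at 3.79, 2.18 and 2.07 FPKM in WT1 to WT3 and 12.6, 27.9 and 4.41 FPKM in TG1 to TG3. All TG libraries were above WT, with a log2 difference of 2.13 (SE 0.604, 95% interval 0.71 to 3.55, limma unadjusted p = 0.00909, adjusted p = 0.786). TG2 and TG1, with the highest Ace, are the libraries with summed choroid plexus markers of 4204 and 1344 FPKM, and with the choroid plexus score as a covariate the log2 difference of Ace was 0.66 (unadjusted p = 0.0337). Without WT2 the unadjusted limma p was 0.0522. Cst3, which encodes cystatin C and was the most abundant of the list, was at 837 to 1163 FPKM in WT and 699.8 to 938 FPKM in TG.

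Substrates of BACE1 and gamma-secretase had positive differences in 13 of 15 genes, but their median was 0.04 and none was under an unadjusted p of 0.05. Sez6l2, the most abundant, lay at 88.0 to 98.7 FPKM in WT and 86.0 to 95.9 FPKM in TG, and Efnb2, with the smallest p, had a log2 difference of 0.20 (limma unadjusted p = 0.139), which was 0.10 without TG1 and 0.13 without WT3. The 22 tested genes of enzymes that act on tau, mostly kinases and phosphatases, were split evenly, 11 positive and 11 negative, with a median of 0.01. Ppp2ca, the catalytic subunit of the tau phosphatase PP2A, lay at 47.2, 48.6 and 55.5 FPKM in WT1 to WT3 and 43.6, 45.0 and 46.1 FPKM in TG1 to TG3, a log2 difference of -0.16 (limma unadjusted p = 0.0775), which was -0.09 without WT3. Ppp3ca, a calcineurin subunit and the most abundant of this list, was at 179 to 213 FPKM in WT and 179 to 189 FPKM in TG. The 17 other microtubule-associated proteins and stathmins also had a median of 0.01, and in Stmn4 TG lay below WT, with a log2 difference of -0.18 (limma unadjusted p = 0.0637), which was -0.11 without WT3. Stmn3, the most abundant stathmin gene of the list, was at 375 to 531 FPKM in WT and 365 to 382 FPKM in TG.

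**Figure D4:**
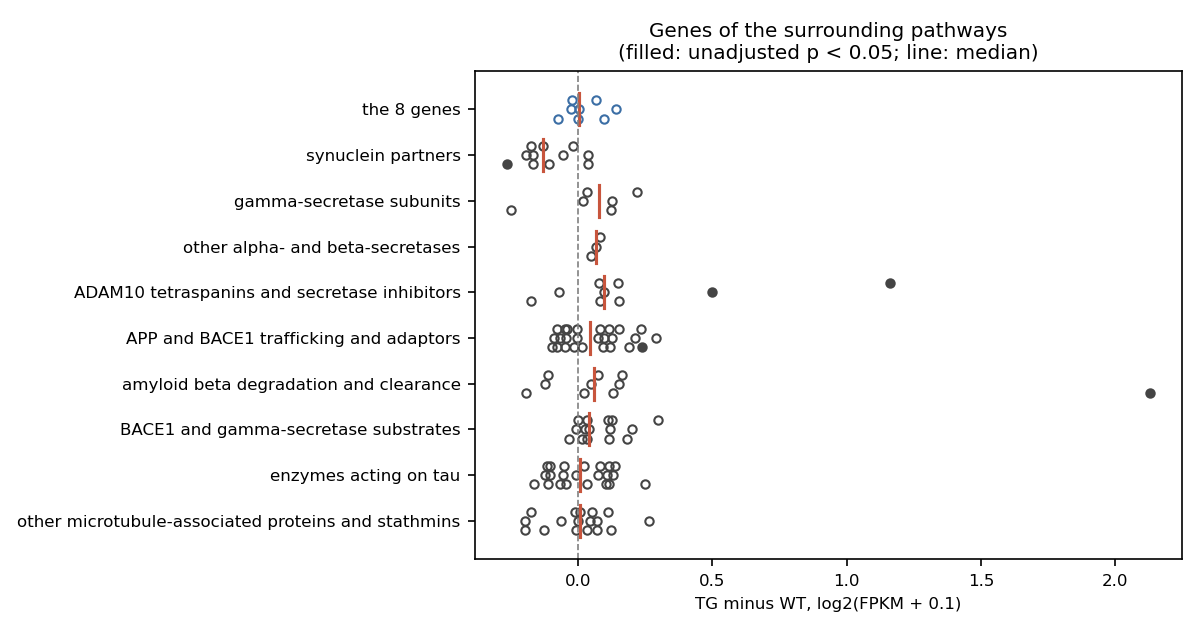
Difference between TG and WT on the scale of log2(FPKM + 0.1) (horizontal axis) for the 8 genes (blue) and for each list of surrounding genes (grey), with 1 point per gene, filled where the unadjusted limma p is under 0.05, and a red line at each list's median. Most points lie near 0, and those far to the right are Ace at 2.13, Sfrp1 at 1.16 and Timp3 at 0.50.

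For each of the 8 genes, the gene of the surrounding lists with the most similar profile was sought over the 6 libraries, by the root mean square difference of the centred log2 values among 114 candidates. The values follow as a description, with no test, because libraries share scaling and composition. Mapt was closest to the tau kinase gene Dyrk1a (0.02) and Bace1 to the kinase gene Mark2 (0.04), and in each of these pairs WT3 was the lowest library. Adam10 was closest to Cdh2 (0.04), which encodes N-cadherin and is itself lowest in WT3. Sncb was closest to Mapre3 (0.04) and Aplp1 to Ppp2r1a (0.03), and WT3 was the highest library in both pairs. App and Psen2 were both closest to Mark1 (0.03 and 0.06), with TG1 the highest library of all 3 genes. Aplp2 was closest to Map4 (0.03), but Aplp2 varied by only 0.02 around its own mean, so both profiles were nearly flat.

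The cell type markers stood beside these values as follows. Summed neuron markers were 1326 to 1572 FPKM in WT and 1266 to 1403 in TG, those of hippocampal principal neurons 284 to 337 in WT and 293 to 315 in TG, and those of astrocytes 493 to 567 in WT and 492 to 520 in TG, so each of these sums overlapped. Summed oligodendrocyte markers were 621, 592 and 501 FPKM in WT1 to WT3 and 401, 548 and 585 FPKM in TG1 to TG3, with negative differences in 8 of 8 genes and 1 of them under an unadjusted p of 0.05. TG1, the lowest library for oligodendrocyte markers, was the highest for App, Mapt, Bace1 and Psen2, and the part of this in those values was not tested. Choroid plexus markers had positive differences in 13 of 13 genes, 7 of them under an unadjusted p of 0.05. TG3 had a choroid plexus sum within the WT range, and set alone against the 3 WT libraries it gave log2 differences of 0.04 for Sncb, 0.07 for Mapt, -0.03 for App, -0.15 for Aplp1, 0.02 for Aplp2, 0.10 for Adam10, 0.06 for Bace1 and -0.19 for Psen2. In this fit, where the lone TG library is assumed to vary like the WT libraries, the smallest unadjusted limma p of the 8 genes was that of Psen2 at 0.151.

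**Figure D5:**
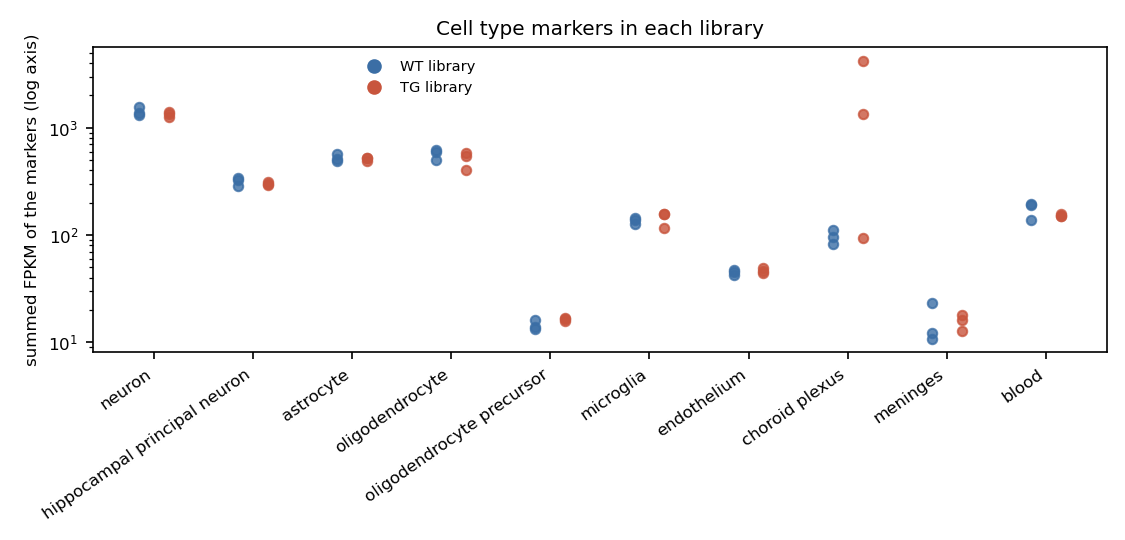
Summed FPKM of the markers of each cell type in every library (log axis), with WT in blue and TG in red. Neuron and astrocyte sums overlap between the groups, whereas the choroid plexus sum reaches 1344 in TG1 and 4204 in TG2 and stays at 92.9 in TG3.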

How the data were processed

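The authors used HTSeq to count hippocampal RNA-seq reads over genes and deposited FPKM for 6 libraries, 1 column per library with no pooling. The submitters' processing notes name GRCm38 and mm10, the aligner and strand setting are not given in the sources used here, and the labels and methods name different extraction and library kits. Gene coordinates, exon lengths and transcript sequences came from GENCODE M21 (GRCm38), whose exon union equalled the deposited length for all 8 genes. Reads were recovered as FPKM times length over a library step. Depth limits and counting CVs cover counting error only, because the libraries carry no stated molecular identifiers and PCR copies count as reads.

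Groups followed the labels. The test was limma 3.58.1 (lmFit, eBayes with trend) in R 4.3.3 on log2(FPKM + 0.1), 3 WT against 3 TG, with no covariate, a mean of at least 0.1 FPKM and Benjamini-Hochberg adjustment at 0.05. This scale understates the change of low genes. Shares and ratios had two-sided exact permutation tests. The script was tested on simulated data. Nothing says that libraries of a group came from separate litters, and p-values measure only the spread between these samples. Beside the 8 genes, the text names the most abundant gene, the gene with the smallest p and each gene at an unadjusted p under 0.05 of every list, and the gene most like each of the 8. The 8 genes and the lists were chosen with earlier results of these data known, so that counts over lists are descriptions. Results of some genes of these lists are not reported here, and 1 list gene was not analysed here. Python 3.11.15, numpy 2.4.6, pandas 2.3.3 and matplotlib 3.10.9 were used.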

Additional observations from a re-analysis of the deposited data

How the results depend on the processing

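The 8 genes were refitted under 18 alternatives, and in none did any of them pass an adjusted or an unadjusted limma p of 0.05. The smallest adjusted p was 0.681. Of 144 refitted differences, 128 kept their sign, including all of those of Aplp1, Bace1, Adam10 and Mapt. Some of these signs were fixed in advance, because other filters, limma without a trend and the replicate block leave the differences themselves unchanged. The count of 128 is therefore not a measure of stability. The removal of a trend on gene length and the order by other lengths were chosen after seeing the data. The cause of the changes below was not tested.

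Over all tested genes, 2 passed the adjusted p of 0.05. The number was 0 with a pseudocount of 1 or 0.01, with no filter, with protein-coding genes only, with limma-voom, with the choroid plexus score, with TG3 alone against WT and with the length trend removed, 1 with a mean of at least 1 FPKM, and 9 with limma without a trend. It was 0 to 6 when 1 library was left out. The unadjusted counts were 328 higher and 371 lower with the choroid plexus score, and 449 to 747 higher and 406 to 717 lower when 1 library was left out. Among the surrounding genes, 5 had an unadjusted p under 0.05, 1 did with the choroid plexus score and 0 did with TG3 alone.

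With the replicate number as a block, 0 genes passed the adjusted p and 3 surrounding genes were under an unadjusted p of 0.05. The correlations of the deviations of same-numbered libraries were 0.0125, 0.0434 and 0.00314. Such values cannot tell whether same-numbered libraries share a litter or a day of work. The labels name no pairing, so the block is not read as one. The block changed no call for the 8 genes.

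With the choroid plexus score as a covariate, the log2 difference turned to 0.029 for Sncb, -0.00082 for App, -0.079 for Timp2, 0.00022 for Sez6l2, -0.0037 for Mark1 and 0.016 for Map4. The list medians under it were 0.032 for gamma-secretase subunits, -0.17 for other alpha- and beta-secretases, 0.20 for ADAM10 regulators, -0.072 for amyloid beta clearance and 0.053 for microtubule-associated proteins. With TG3 alone, the difference was 0.039 for Sncb, -0.028 for App, -0.11 for Timp2 and -0.042 for Mark1, and the medians were -0.17 for other secretases, 0.19 for ADAM10 regulators and -0.069 for clearance. With libraries centred on their medians, it was -0.034 for App, -0.030 for Aplp2, -0.014 for Mark1 and -0.0080 for Cdh2, with a median of -0.032 over the 8 genes. With the length trend removed, it was 0.025 for Sncb, -0.083 for App, -0.028 for Aplp2 and -0.025 for Cdh2, with a median of -0.035 for microtubule-associated proteins. With limma-voom, it was -0.0013 for App.

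When 1 library was left out, the log2 difference ranged from -0.074 to 0.0055 for Sncb, -0.041 to 0.030 for App, -0.0064 to 0.024 for Aplp2, -0.087 to 0.066 for Psen2, -0.10 to 0.014 for Hspa8, -0.011 to 0.22 for Timp2, -0.072 to 0.012 for Sez6l2, -0.032 to 0.054 for Mark1, -0.038 to 0.025 for Map4 and -0.0021 to 0.072 for Cdh2. The median was -0.00093 to 0.041 over the 8 genes, 0.040 to 0.21 for other secretases and 0.085 to 0.18 for ADAM10 regulators. The difference of the log2 ratio was -0.088 to 0.011 for Adam10 over Bace1 and -0.17 to 0.00012 for Sncb over Mapt. Psen2 rests on the fewest reads, and changes within its interval of -17.2% to 17.3% are compatible with its values. This interval is not a limit of detection, and larger changes could also have missed the adjusted threshold.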
